A study of Mus musculus with 9 samples.

Results

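Elastic fibre genes are the genes whose products make, assemble and cross-link the elastic fibre. Members were chosen by name (Eln, Fbn1, Fbln1, Fbln2, Fbln5, Mfap2, Mfap4, Mfap5, Lox and Loxl1), and a member was read through every probe set whose only annotated symbol was that gene. Of the 10 named genes, 9 had such a probe set, among 18193 genes in all, and Fbn1 was not analysed here. The 9 genes had 19 probe sets. Mfap4 had 1, Fbln1 and Lox had 3 each, and the other 6 had 2 each. After the dimmest 40% of all probe sets were dropped, 16 of the 19 were tested, and the 3 left out were the dimmest of Fbln2, Fbln5 and Lox. A gene's value below is that of its brightest probe set by mean over the arrays, and all 9 of those were tested.

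Expression had been measured in homogenate of the whole right lung of mice of the strains BL6 (given as C57/BL6 in some labels), FVB/N and SV129, on 9 one-colour oligonucleotide arrays. Hypoxic mice had spent 4 weeks in hypobaric hypoxia at 50 kPa (BL6 arrays 2 and 5, FVB/N arrays 2 and 6, SV129 arrays 2 and 5). Normoxic mice had spent the 4 weeks at the altitude of the laboratory, 85 kPa (array 1 of each strain). No mutation or drug is named for any group, and age, sex and the number of animals behind an array are not given in the sources used here. Separate animals are stated for no pair of arrays, so the p-values rest on the spread among these samples alone, and that spread may be technical. The number of arrays limits the precision.

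An elastic fibre has a core of cross-linked elastin and a sheath of fibrillin microfibrils. Cells secrete tropoelastin, fibulins and microfibril-associated proteins help to lay it on the microfibrils, and lysyl oxidases join its lysines into a stable rubber-like polymer. In the lung the fibres run through the walls of alveoli, airways and pulmonary arteries and provide recoil. Elastin is also laid down by smooth muscle cells when pulmonary arteries thicken. In whole lung, fewer cells of a type and less RNA per cell cannot be told apart.

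The RefSeq promoter table (GRCm38.p6) held a window at the outermost start of 3 members, Fbln5, Fbln1 and Mfap2. The windows of the fibulins are shown as an example of a member that rose in hypoxia (Fbln5) and of one whose change did not pass (Fbln1). The difference between their changes was not tested. Each covers the 250 bases before the start, 5′ to 3′ on the gene's strand. Fbln5 lies at chr12:101819120-101819369 on the minus strand and Fbln1 at chr15:85205699-85205948 on the plus strand. Capitals mark matches on either strand to ACGTG, the core letters of hypoxia response elements, or to GGGCGG, the core of a GC box.
Fbln5: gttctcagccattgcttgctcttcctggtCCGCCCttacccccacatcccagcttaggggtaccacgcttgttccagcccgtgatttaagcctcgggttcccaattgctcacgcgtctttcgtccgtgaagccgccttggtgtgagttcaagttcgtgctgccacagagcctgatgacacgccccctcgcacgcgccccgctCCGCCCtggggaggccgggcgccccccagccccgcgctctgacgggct
Fbln1: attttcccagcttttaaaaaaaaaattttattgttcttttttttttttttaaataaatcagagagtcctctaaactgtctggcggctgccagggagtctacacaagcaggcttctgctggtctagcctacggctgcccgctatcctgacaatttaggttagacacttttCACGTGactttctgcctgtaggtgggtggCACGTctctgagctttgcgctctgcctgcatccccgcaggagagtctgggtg

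The Fbln5 window held 2 matches to GGGCGG, both on the reverse strand, at 48 and 221 bases before the start, and 0 to ACGTG. The Fbln1 window held 3 matches to ACGTG and 0 to GGGCGG. Matches at 80 bases on the gene's strand and 81 bases on the reverse strand overlap in the palindrome CACGTG, and the third lies 52 bases before the start on the reverse strand. The Mfap2 window held neither. Of 32851 windows of 250 bases in the table, 16.6% held ACGTG and 32.7% held GGGCGG. Such a match is a description of the letters, not a binding site.

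Values are quantile-normalized log2(signal + 16). A change is the hypoxic less the normoxic value unless stated, and a fold on this scale understates the change of dim probe sets. Errors of levels are SD and errors of changes SE. Each adjusted p comes from limma, adjusted by Benjamini-Hochberg over the 27022 probe sets tested, with 0.05 as the threshold. Before normalization, the arrays' medians lay between 6.76 and 6.99. Lung markers were high on all arrays, with a list mean of 13.82 to 14.39. Hypoxic BL6 array 2 and normoxic FVB/N array 1 also carried kidney transcripts: the mean of the kidney list, of which 12 of 15 measured genes were tested, was 11.27 and 12.08 on them and 5.50 to 6.11 on the other 7. The skeletal muscle list, with 4 of 8 tested, had a mean of 10.99 on normoxic FVB/N array 1 and 5.75 to 6.27 on the other 8. On that same array the means of the lung, fibroblast, smooth muscle, endothelial and mesothelial lists were each the lowest of the 9, at 13.82, 11.46, 10.34, 11.43 and 9.22. The heart muscle list varied from 9.94 to 12.01 over arrays of both pressures.

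**Figure D1:**
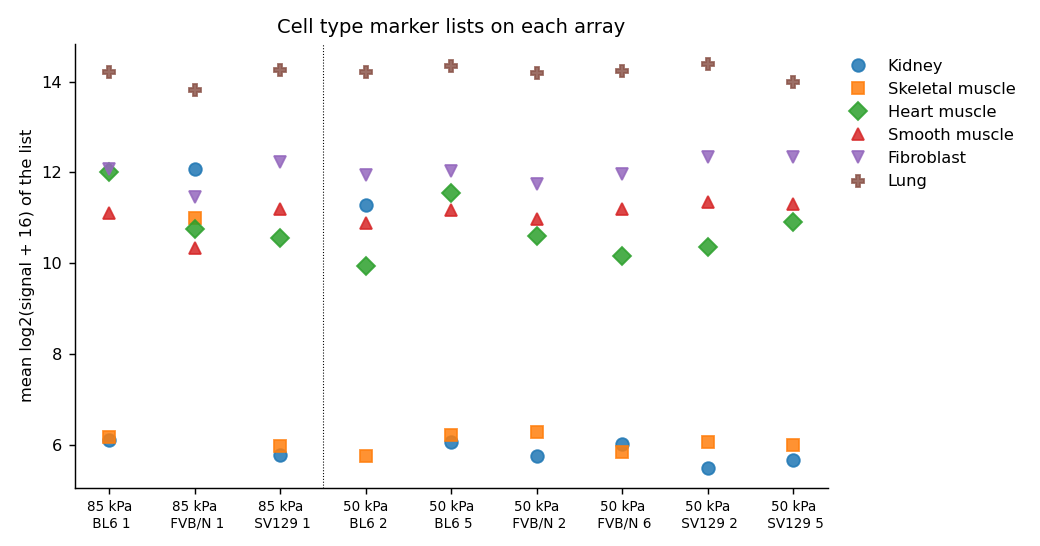
Mean log2 signal of 6 marker lists (kidney, skeletal muscle, heart muscle, smooth muscle, fibroblast, lung) on each of the 9 arrays. The kidney mean stands at 11.27 on hypoxic BL6 array 2 and 12.08 on normoxic FVB/N array 1, and at 6.11 or less on the other 7.

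Hypoxia was first compared with normoxia over the 3 strains together, in an additive model of strain and pressure, to ask how chronic hypoxia altered transcripts of the lung. Elastin, Mfap4, Loxl1 and Fbln5 rose, by 1.54- to 2.20-fold, and no member fell. These 4 of 9 members stand beside 1.94% of all tested probe sets called higher and 1.82% called lower. The median change of the members was 0.62, against 0.04 over all probe sets tested. Lox, Mfap5 and Fbln2 had estimates above 0 that did not pass, and those of Mfap2 and Fbln1 lay below 0 and did not pass.

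Eln encodes tropoelastin, the monomer of the fibre's core. Its normoxic levels were 10.91 in BL6, 9.94 in FVB/N and 11.24 in SV129. The hypoxic arrays read 12.28 and 11.79 in BL6, 10.86 and 11.22 in FVB/N, and 12.36 and 12.49 in SV129. Every hypoxic array lay above the normoxic array of its strain, by 0.88 to 1.37, although the hypoxic FVB/N arrays lay below normoxic SV129. The means were 11.83 ± 0.670 (SD, n = 6) in hypoxia and 10.70 ± 0.677 (SD, n = 3) in normoxia. The change was 1.14 ± 0.145 (SE), or 2.20-fold, with an adjusted p of 0.0138 in limma. On the scale the authors deposited, the brightest probe set's signal ran from 1880 to 5795 in hypoxia and from 936 to 2424 in normoxia. The second, dimmer Eln probe set rose by 1.62 ± 0.239 (SE), or 3.07-fold (adjusted p = 0.0166), and was also higher in 6 of 6 hypoxic arrays than in normoxia of the same strain.

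Mfap4, microfibril-associated glycoprotein 4, a fibrinogen-domain protein that binds elastin and microfibrils, separated the pressures fully. Normoxic arrays read 12.76 in BL6, 12.89 in FVB/N and 12.92 in SV129. Hypoxic arrays had a lowest value of 13.47, a median of 13.67 and a highest value of 14.06, all above the normoxic arrays. Its 3 normoxic values differed by less than the hypoxic ones did, with an SD of 0.087 (n = 3) against 0.213 (n = 6). The change was 0.86 ± 0.136 (SE), or 1.81-fold (adjusted p = 0.0185, limma).

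Loxl1, lysyl oxidase-like 1, oxidises lysines of tropoelastin and is tied to fibre upkeep in adult tissue. Normoxic arrays read 11.73 in BL6, 11.31 in FVB/N and 12.05 in SV129. The hypoxic pairs read 12.36 and 12.49 in BL6, 11.75 and 12.13 in FVB/N, and 12.80 and 12.64 in SV129, so that each lay above its strain's normoxic array, by 0.44 to 0.82. The change was 0.66 ± 0.118 (SE), or 1.58-fold (adjusted p = 0.0244, limma). Its dimmer probe set gave 0.45 ± 0.234 (SE) and did not pass (adjusted p = 0.300). Lox itself, the lysyl oxidase that cross-links elastin and collagen, gave 0.71 ± 0.283 (SE) and did not pass (adjusted p = 0.181). Its hypoxic arrays ran from 11.61 to 12.44 with a median of 11.91, with normoxic BL6 just below that range at 11.56 and normoxic SV129 inside it at 11.76. Normoxic FVB/N stood alone at 10.30. Without normoxic FVB/N array 1 the estimate for Lox was 0.23. The second Lox probe set gave 0.82 ± 0.377 (SE) and did not pass (adjusted p = 0.237).

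Fbln5, fibulin 5, binds tropoelastin and lysyl oxidase-like enzymes and guides the assembly of the fibre. Its 6 hypoxic arrays lay within a narrow band, from 12.44 to 12.67 with a median of 12.55. Normoxic arrays read 12.15 in BL6, 11.61 in FVB/N and 12.03 in SV129, all below the hypoxic band. The change was 0.62 ± 0.114 (SE), or 1.54-fold (adjusted p = 0.0264, limma), and it was 0.48 without normoxic FVB/N array 1. Fbln2, fibulin 2, which sits in elastic fibres and basement membranes, read 8.95 to 9.37 in hypoxia with a median of 9.20. Normoxic BL6 and FVB/N lay below that range at 8.21 and 7.93, whereas normoxic SV129 lay above it at 9.68. Its change was 0.55 ± 0.279 (SE) (adjusted p = 0.284), and it was 0.21 without normoxic FVB/N array 1 and 1.05 without normoxic SV129 array 1, neither past the threshold. Fbln1, fibulin 1, found in elastic fibres and other matrix, gave -0.12 ± 0.337 (SE) (adjusted p = 0.867), with hypoxic arrays from 9.36 to 11.07 and normoxic arrays from 9.94 to 10.86. The hypoxic SV129 pair alone spanned 11.06 to 9.52. The other Fbln1 probe sets gave -0.49 and 0.27 and did not pass, and in the dimmer of the hypoxic SV129 pair, array 5, the first of them read 7.59 against 10.92 on array 2.

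Mfap5 and Mfap2 encode the small glycoproteins MAGP-2 and MAGP-1 of the microfibril. Mfap5 read 11.57 and 11.56 in hypoxic BL6, 10.69 and 11.42 in hypoxic FVB/N and 10.26 and 10.25 in hypoxic SV129. Normoxic levels were 11.42, 10.24 and 9.87 in the same order. Each hypoxic array lay above its strain's normoxic array, by 0.14 to 1.17. The change was 0.45 ± 0.185 (SE) and did not pass (adjusted p = 0.198), and it was 0.27 without normoxic FVB/N array 1. The second Mfap5 probe set gave 0.63 ± 0.215 (SE) (adjusted p = 0.130). Mfap2 gave -0.21 ± 0.237 (SE) (adjusted p = 0.644) with 3 of 6 hypoxic arrays above the normoxic array of their strain. Its second probe set gave -0.29 (adjusted p = 0.555).

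**Figure D2:**
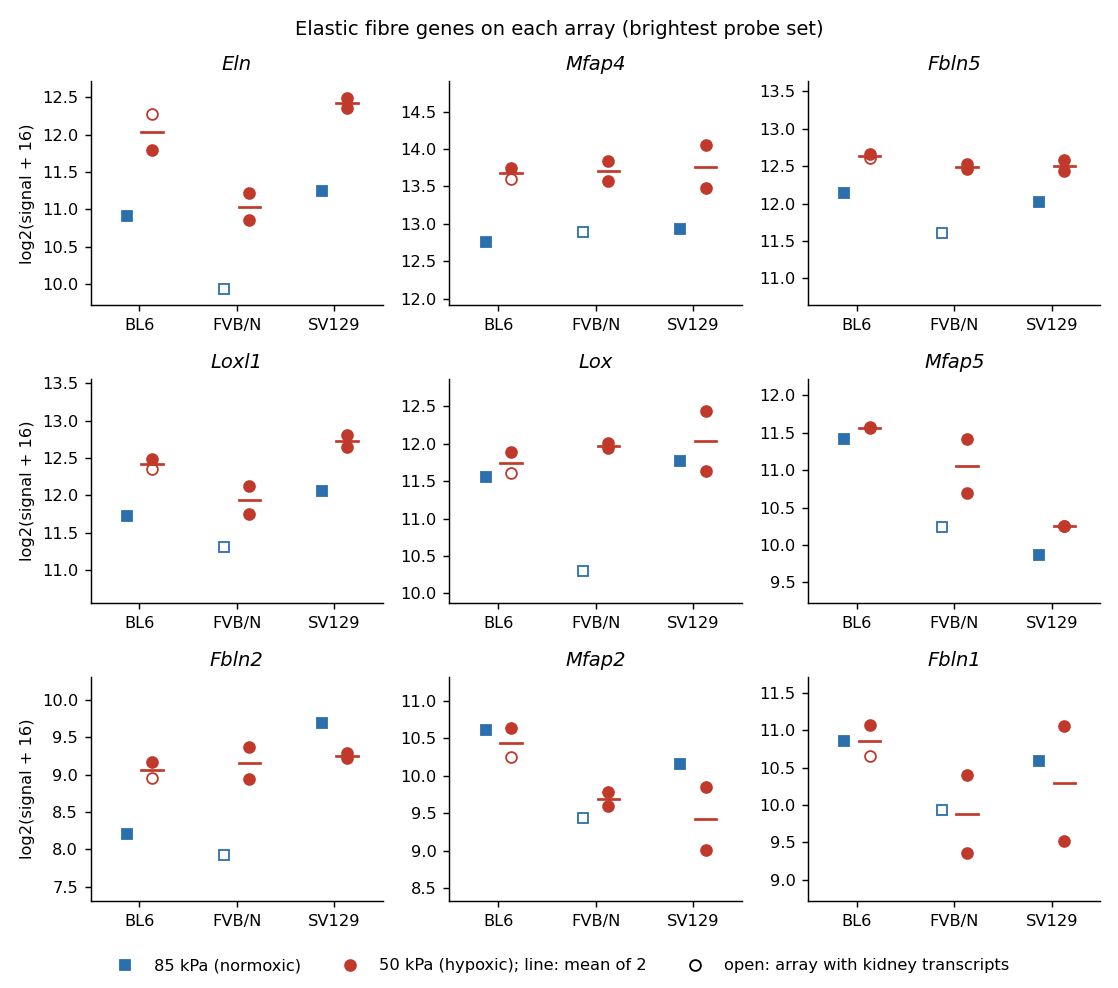
Log2 signal of the 9 measured members on each array by strain, through the brightest probe set, with squares for 85 kPa, circles for 50 kPa, a line at the mean of the 2 hypoxic arrays and open symbols for the 2 arrays with kidney transcripts. Mfap4 and Fbln5 show all 6 circles above all 3 squares, and Eln shows circles above the square within each strain.

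All 6 hypoxic arrays lay above all 3 normoxic arrays for 2 of 9 members, Mfap4 and Fbln5. Over all tested probe sets 6.53% did so. Every hypoxic array lay above the normoxic array of its own strain for 5 of 9 members (Mfap4, Fbln5, Loxl1, Eln and Mfap5), against 14.5% of all probe sets. The calls depended on single arrays. Without normoxic BL6 array 1 or normoxic SV129 array 1, 0 members passed (Eln 1.14, adjusted p = 0.0757, and 1.11, adjusted p = 0.0874), and only 0.0407% and 0.0111% of all probe sets did. Without hypoxic BL6 array 5 Eln passed alone, without hypoxic BL6 array 2 or hypoxic FVB/N array 6 Eln and Mfap4 passed, and without hypoxic FVB/N array 2 Eln, Mfap4 and Loxl1 passed. The estimates of these 4 genes moved little in the 9 fits that each left out 1 array: Eln stayed between 1.07 and 1.20, Mfap4 between 0.77 and 0.93, Loxl1 between 0.62 and 0.72 and Fbln5 between 0.48 and 0.69.

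Kidney transcripts lay on 1 hypoxic and 1 normoxic array. Without both, Eln passed at 1.04 (adjusted p = 0.0462), and Mfap4 at 0.92 (0.0642), Loxl1 at 0.71 (0.0774) and Fbln5 at 0.49 (0.104) had adjusted p-values above the threshold. In that fit of 7 arrays 0.844% of all probe sets passed, the median of the members was 0.30, Lox was at 0.30 and Fbln2 at 0.17. Without normoxic FVB/N array 1 alone the same 4 members passed, and the median of the 9 was 0.27. The part of kidney or skeletal muscle tissue in the values of Lox, Fbln2 and Mfap5 was not tested beyond these fits. Of markers of cells that make elastic fibres, 0 of 8 smooth muscle genes and 1 of 8 fibroblast genes were called higher, with median changes of 0.30 and 0.26. Their lists' means lay between 10.89 and 11.36 (smooth muscle) and between 11.75 and 12.35 (fibroblast) on the hypoxic arrays, and between 10.34 and 11.19 and between 11.46 and 12.24 on the normoxic arrays. Of other cell types, the endothelial list had 1 of 6 genes called higher (Emcn, 1.43, adjusted p = 0.00621) and a median of 0.43. Estimates lay above 0 for 4 of the 6, with Cdh5 at -0.61 and Kdr at -0.12. This list's means ran from 11.77 to 12.42 in hypoxia and from 11.43 to 12.06 in normoxia. The lung, mesothelial and heart muscle lists had 0 genes called, with medians of 0.14, 0.35 and -0.37. The adipocyte list had 1 of 3 tested genes called lower (Adipoq, -1.85, adjusted p = 0.0430) and a median of -1.85, with list means from 4.88 to 7.004 in hypoxia and from 6.38 to 8.13 in normoxia. The part of the abundance of any of these cells in the members' rise was not tested.

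**Figure D3:**
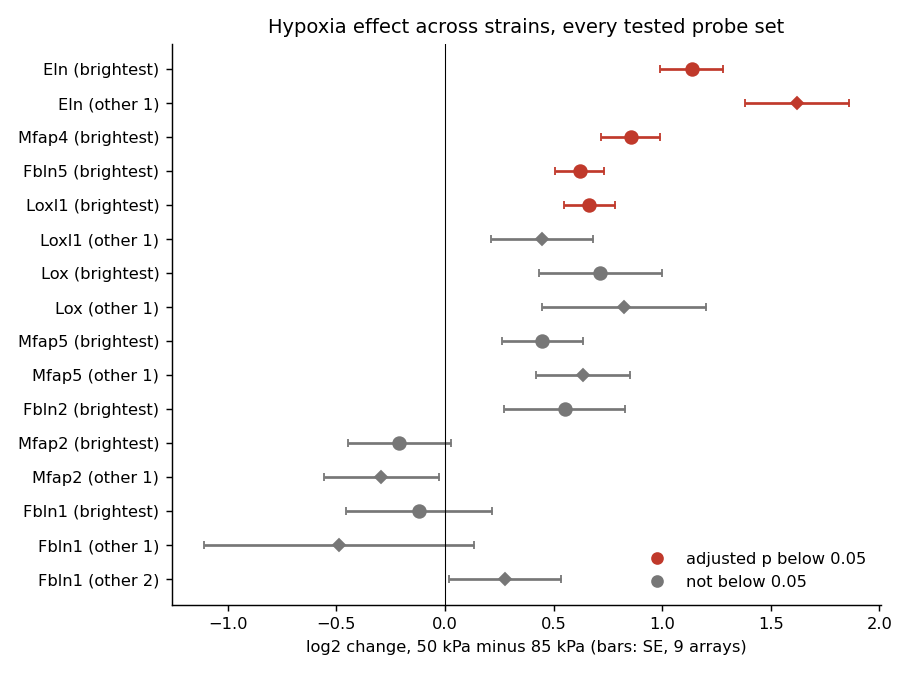
Log2 change of hypoxic against normoxic lung, with its SE, for the 16 tested probe sets of the members in the additive model over 9 arrays, with those past an adjusted p of 0.05 in red. Both Eln probe sets, Mfap4, Fbln5 and the brighter Loxl1 probe set are red, and the 2 Mfap2 probe sets lie below 0.

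Within a strain, the pair of hypoxic arrays was set against the single normoxic array, which was assumed to vary like the hypoxic arrays. In FVB/N, 3 of 9 members passed, all higher, beside 2.95% of all probe sets called higher and a median over all probe sets of 0.17. Lox rose in FVB/N from 10.30 to 12.01 and 11.94, a change of 1.68 ± 0.316 (SE), or 3.20-fold (adjusted p = 0.0322, limma). Its second probe set rose there by 2.26 ± 0.312 (SE) (adjusted p = 0.0267). Fbln5 rose in FVB/N by 0.88 ± 0.158 (SE) (adjusted p = 0.0296) and Fbln2 by 1.23 ± 0.285 (SE) (adjusted p = 0.0473). Elastin in FVB/N, at 1.10 ± 0.262 (SE) did not pass (adjusted p = 0.05005, just above the threshold). These FVB/N values all rest on the normoxic array with kidney and skeletal muscle transcripts, on which the lung and fibroblast list means were the lowest of the 9 arrays, and the part of that tissue in them was not tested. Without either hypoxic FVB/N array, 0 members and 0% of all probe sets passed, and Lox then stood at 1.64 without array 2 (adjusted p = 0.152) and at 1.72 without array 6 (adjusted p = 0.143). In the 8 fits that each left out 1 array other than normoxic FVB/N array 1, Lox stayed between 1.64 and 1.72. Fbln5 stayed between 0.85 and 0.92 and Fbln2 between 1.02 and 1.43. Fbln2 was also lost without hypoxic BL6 array 2 (adjusted p = 0.0784) or hypoxic BL6 array 5 (adjusted p = 0.0765).

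In BL6 and in SV129, 0 of 9 members passed in limma, and 5 and 4 had an unadjusted p below 0.05. Over all probe sets, 0.0148% and 0% passed after adjustment, and 12.5% and 7.58% were below 0.05 unadjusted. Elastin's estimates were alike in size in the strains, 1.12 ± 0.262 (SE) in BL6 and 1.19 ± 0.262 (SE) in SV129, but neither passed (adjusted p = 0.162 and 0.412). For Mfap4 they were 0.91 in BL6, 0.81 in FVB/N and 0.84 in SV129. Lox, in contrast, had 0.19 in BL6 and 0.27 in SV129. Fbln2 had 0.85 ± 0.285 (SE) in BL6 and -0.43 ± 0.285 (SE) in SV129. The test of the difference between strains in the hypoxia effect called 0 of 9 members, and 0% of all probe sets. Fbln2 (adjusted p = 0.244) and Lox (adjusted p = 0.300) were below 0.05 before adjustment in limma, as were 12.3% of all probe sets. A difference between strains in the response of any member is therefore not shown.

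**Figure D4:**
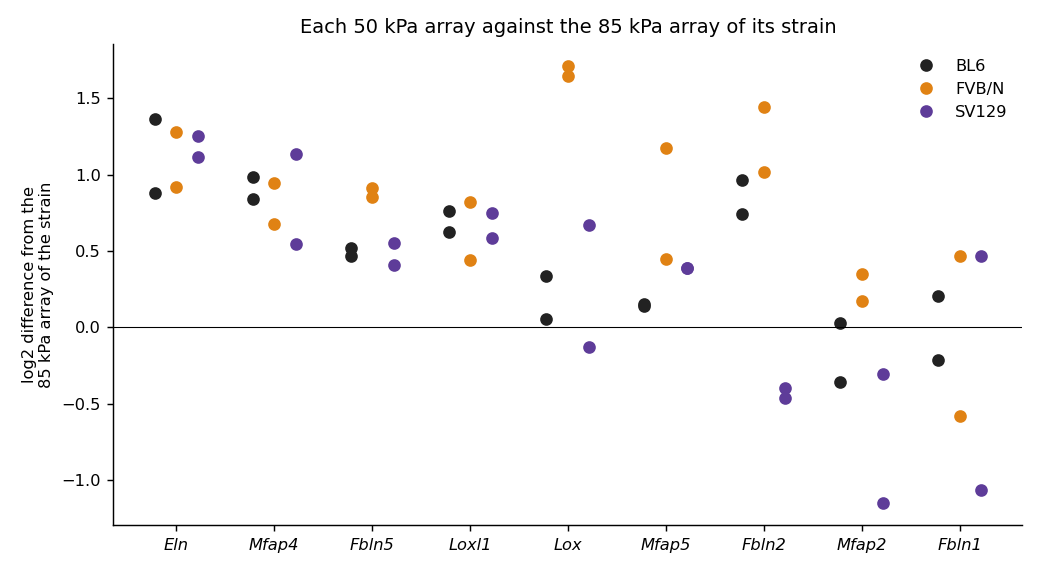
Difference of each hypoxic array from the normoxic array of its strain, in log2 units, for the 9 members through the brightest probe set. Elastin lies between 0.88 and 1.37 in all strains, whereas Lox lies at 1.64 and 1.71 in FVB/N and between -0.13 and 0.67 in BL6 and SV129.

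Strains were compared at equal pressure in the additive model, with 3 arrays per strain. The strain comparisons share arrays with one another, so their results are given side by side. Elastin was lowest in FVB/N. Its mean was 10.67 ± 0.660 (SD, n = 3) in FVB/N, 11.66 ± 0.692 (SD, n = 3) in BL6 and 12.03 ± 0.688 (SD, n = 3) in SV129, SDs that hold both pressures. FVB/N was below SV129 by 1.36 ± 0.167 (SE), or 2.57-fold (adjusted p = 0.00327, limma), and every SV129 array lay above every FVB/N array. The second probe set gave a difference of -1.34 (adjusted p = 0.0378), but there normoxic SV129 (8.93) lay below hypoxic FVB/N array 6 (9.55). BL6 was above FVB/N by 0.99 ± 0.167 (SE), or 1.99-fold (adjusted p = 0.0163), but the call was lost when hypoxic BL6 array 2 (0.86, adjusted p = 0.0718), hypoxic FVB/N array 2 (0.89, adjusted p = 0.0814), normoxic BL6 array 1 (0.99, adjusted p = 0.0840) or the pair of arrays with kidney transcripts (0.83, adjusted p = 0.124) was left out. The second probe set gave 1.17 for it and did not pass (adjusted p = 0.0755). Of the fibroblast markers 2 of 8 were also lower in FVB/N than in SV129, Col1a1 by 1.30 (adjusted p = 0.00764) and Col1a2 by 0.70 (adjusted p = 0.0225). The fibroblast list's mean was 11.46 to 11.96 on the FVB/N arrays and 12.24 to 12.35 on the SV129 arrays, and its part in the differences of Eln and Loxl1 was not tested. The neighbours BL6 and SV129 were not told apart for Eln (-0.37 ± 0.167 SE, adjusted p = 0.325).

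Loxl1 had the same order of means, 11.73 in FVB/N, 12.19 in BL6 and 12.50 in SV129. FVB/N was below SV129 by 0.77 ± 0.137 (SE), or 1.71-fold (adjusted p = 0.0192, limma). That call was lost without hypoxic BL6 array 5 (adjusted p = 0.0521), hypoxic FVB/N array 2 (0.0703), hypoxic SV129 array 2 (0.0750) or normoxic SV129 array 1 (0.100), with differences from -0.66 to -0.78. The second Loxl1 probe set gave -0.28 ± 0.270 (SE) between FVB/N and SV129 and did not pass (adjusted p = 0.646, limma). In the brightest probe set, the steps from FVB/N to BL6 and from BL6 to SV129 did not pass (adjusted p = 0.159 and 0.315). Between FVB/N and SV129 these 2 of 9 members passed, beside 2.89% of all probe sets in either direction.

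Mfap5 had another order, highest in BL6. Its mean was 11.52 ± 0.085 (SD, n = 3) in BL6, 10.78 ± 0.591 (SD, n = 3) in FVB/N and 10.12 ± 0.224 (SD, n = 3) in SV129. BL6 was above SV129 by 1.39 ± 0.214 (SE), or 2.62-fold (adjusted p = 0.0111, limma), with all BL6 arrays above all SV129 arrays, the only one of 9 members to pass beside 2.51% of all probe sets. The second Mfap5 probe set gave 1.13 (adjusted p = 0.0515). The call was lost without hypoxic BL6 array 5 (1.45, adjusted p = 0.0598), normoxic BL6 array 1 (1.24, adjusted p = 0.0524) or normoxic SV129 array 1 (1.42, adjusted p = 0.0606). Some markers of other cell types were higher in BL6 than in SV129 as well. These were 2 of 3 tested adipocyte genes, Adipoq by 2.91 (adjusted p = 0.0126) and Retn by 2.40 (adjusted p = 0.0374). Of 6 mesothelial genes only Upk1b passed, by 1.93 (adjusted p = 0.0106). Msln (-0.41), Upk3b (-0.39), Wt1 (-1.06) and Lrrn4 (-0.59) had estimates below 0, and Krt19 was at 0.04. The mesothelial list's mean was 9.70 to 10.01 on the BL6 arrays and 9.72 to 10.17 on the SV129 arrays. The adipocyte list's mean was 6.95 to 8.13 on the BL6 arrays and 5.36 to 6.38 on the SV129 arrays. The part of adipocytes and mesothelial cells in the difference of Mfap5 was not tested. Between BL6 and FVB/N the difference was 0.73 ± 0.214 (SE) (adjusted p = 0.157) and between FVB/N and SV129 it was 0.66 ± 0.214 (SE) (adjusted p = 0.167), and neither passed.

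In the comparison of BL6 with FVB/N, Eln was the single member of 9 to pass, beside 2.07% of all probe sets. All BL6 arrays lay above all FVB/N arrays for 3 members, Mfap5, Fbln1 and Mfap2, against 8.37% of all probe sets, with differences of 0.73, 0.96 and 0.89 that did not pass. In the dimmest Fbln1 probe set these strains overlapped, with normoxic BL6 at 7.06 and hypoxic FVB/N array 2 at 7.14. Mfap5 and Mfap2 did so against SV129 (10.2% of all probe sets), where Mfap2's difference was 0.83 (adjusted p = 0.179). In the second Mfap2 probe set BL6 and SV129 overlapped, with a difference of 0.38 (adjusted p = 0.593). Fbln2 was the only member with all SV129 arrays above all BL6 arrays (11.5%), and Eln the only one with all SV129 above all FVB/N (10.7%). Mfap4 and Fbln5, which separated the pressures, had 6 strain differences that lay between -0.15 and 0.28 with none past the threshold.

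**Figure D5:**
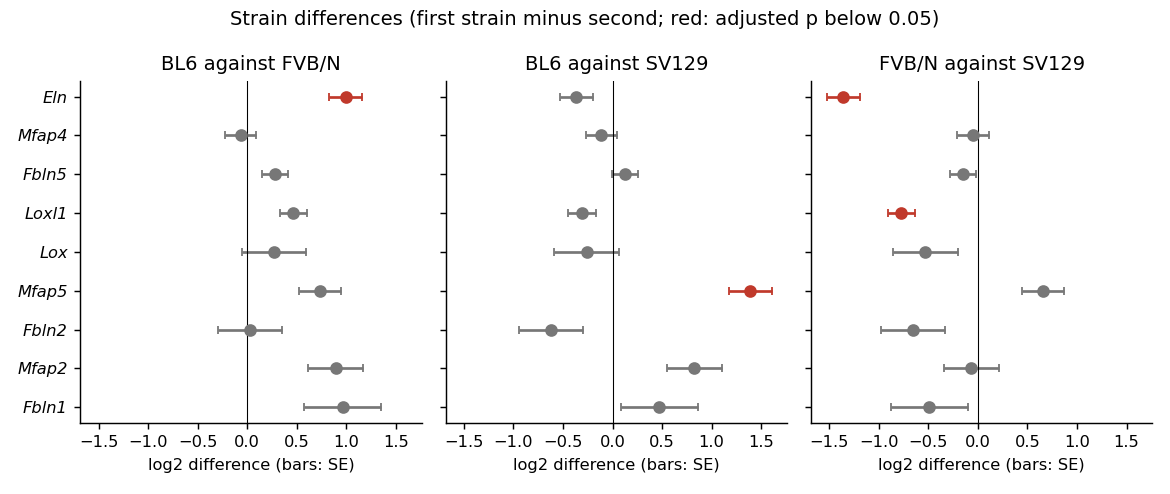
Strain differences of the 9 members in log2 units with their SE, in panels for BL6 minus FVB/N, BL6 minus SV129 and FVB/N minus SV129, from the additive model over 9 arrays. Eln stands at -1.36 and Loxl1 at -0.77 in FVB/N minus SV129, and Mfap5 at 1.39 in BL6 minus SV129.

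The profile of elastin over the 9 arrays, centred on its mean, was set against that of the other 12894 genes by the root mean square (RMS) difference. The nearest were Cpm, a membrane-bound carboxypeptidase (RMS 0.264), Col1a1, the main chain of type I collagen (0.297), C1qtnf7 (0.331), Creb3l1, a transcription factor of the secretory pathway (0.333), and Dusp26, a phosphatase (0.346). The median gene stood at 0.838. These 5 genes were picked for values like those of Eln on the same arrays. A rise of theirs in hypoxia therefore follows in large part from the choice, and their p-values are no separate support. Col1a1 read 11.75 and 11.79 in hypoxic BL6, 11.14 and 11.23 in hypoxic FVB/N and 12.90 and 12.32 in hypoxic SV129, against 11.14, 10.30 and 11.33 in the normoxic arrays. Cpm and Col1a1 rose in hypoxia by 0.69 ± 0.119 (SE) (adjusted p = 0.0221) and 0.93 ± 0.164 (SE) (adjusted p = 0.0236), and 0 of the 5 passed without both arrays with kidney transcripts, where Cpm stood at 0.68 (adjusted p = 0.0873) and Col1a1 at 0.99 (adjusted p = 0.0768). Of the members Loxl1 was the nearest to Eln, at rank 9 of 12894 (0.382), and Fbln5, Lox, Fbln2 and Mfap4 held ranks 371, 431, 741 and 891. Fbln1, Mfap2 and Mfap5 were farther from Eln than the median gene, at 0.862, 0.943 and 0.974. Eln, Loxl1, Fbln5, Lox and Fbln2 each had their lowest value on normoxic FVB/N array 1, which carried kidney and skeletal muscle transcripts. The part of that array in these ranks was not tested.

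Another list held 31 genes of fibrillins, latent TGF-beta binding proteins, further lysyl oxidases and fibulins, and partners of the fibre, of which 25 had a probe set and 24 were tested. For hypoxia 0 were called higher and 1 lower, beside 1.94% and 1.82% of all probe sets. Estimates lay above 0 for 13, with a median of 0.03. The one that fell was Mfap3l, a paralogue of the microfibril-associated Mfap3 whose role in elastic fibres is not established, by 1.26 ± 0.254 (SE), or 2.40-fold (adjusted p = 0.0349, limma). Its level was 11.92 in normoxic FVB/N, 10.41 and 10.31 in normoxic BL6 and SV129, and 9.50 to 9.75 in hypoxia. It passed in 2 of the 9 fits that left out 1 array, and not when both arrays carrying kidney transcripts were left out (-0.83, adjusted p = 0.0705). Ltbp4, a latent TGF-beta binding protein needed for elastic fibre assembly with fibulins, gave 0.67 ± 0.158 (SE) and did not pass (adjusted p = 0.0526). Glb1, Hmcn1 and Ltbp2 gave -0.70, -0.48 and 0.48 and did not pass either. Glb1 was highest on the arrays with kidney transcripts, at 10.23 and 11.47 against 8.46 to 9.40 on the others. Without both of those arrays, Glb1, Hmcn1 and Ltbp2 stood at -0.13, -0.73 and 0.38. In the strain comparisons 0 genes of this list passed, beside 2.07% (BL6 against FVB/N), 2.51% (BL6 against SV129) and 2.89% (FVB/N against SV129) of all probe sets. Without both arrays with kidney transcripts 0 passed for hypoxia and the list's median was -0.19.

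A list of 25 enzymes that degrade elastin and their inhibitors had 24 genes with a probe set and 19 tested. For hypoxia 1 was called higher and 0 lower, beside 1.94% and 1.82% of all probe sets. Estimates lay above 0 for 14, with a median of 0.07. Mmp2, the gelatinase that also cuts elastin, rose by 0.63 ± 0.128 (SE), or 1.55-fold (adjusted p = 0.0349, limma). It passed in 2 of the 9 fits that left out 1 array, and not in the fit that left out both arrays carrying kidney transcripts (0.50, adjusted p = 0.172). Cela1, Timp4, Cela3b and Serpina1b gave -1.27, -1.05, -0.79 and 0.62 and did not pass. Cela1 was highest on the arrays with kidney transcripts, at 10.44 and 11.20 against 5.90 to 7.41 on the others. Without both of those arrays, the same genes stood at -0.79, -1.54, -0.61 and -0.24. The list's median was -0.11 without both arrays with kidney transcripts.

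Between strains, 4 of the 19 tested genes of the degrading list passed for BL6 against FVB/N, 2 for BL6 against SV129 and 1 for FVB/N against SV129, beside 2.07%, 2.51% and 2.89% of all probe sets. Mmp14, the membrane-bound matrix metalloproteinase that activates Mmp2, was lower in FVB/N than in SV129 by 1.48 ± 0.195 (SE) (adjusted p = 0.00478), and this passed in all 9 fits that left out 1 array. Higher in BL6 than in FVB/N were Mmp14 by 1.02 (adjusted p = 0.0312) and the lysosomal elastases Ctss by 0.94 (adjusted p = 0.0157) and Ctsk by 0.89 (adjusted p = 0.0367). Ctss was also higher in BL6 than in SV129, by 0.72 (adjusted p = 0.0481). Serpina1b, of the alpha-1-antitrypsin family, passed as lower in BL6 than in FVB/N (adjusted p = 0.00926) and SV129 (adjusted p = 0.0349). It read 7.11, 4.45 and 4.38 in BL6, the last 2 near the lowest value this scale allows, against 7.97 to 9.86 in the other strains, so no fold is given. The 7.11 came from hypoxic BL6 array 2, which carried kidney transcripts. The gene has near-identical copies that the probe set may not tell apart. Of the 9 fits that left out 1 array, Serpina1b passed in 7 against FVB/N and 2 against SV129, Ctss in 6 and 1, and Mmp14 and Ctsk between BL6 and FVB/N in 1 and 3.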

How the data were processed

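Total RNA of whole right lung was labelled with biotin and hybridised to 9 one-colour arrays, per the labels' protocols. The deposited table gives for each probe set a linear intensity on each array. The authors had scaled each array to a mean of 500 with the top and bottom 2% left out, as judged from the deposited values (trimmed means of 500.002 to 500.003). No source used here names the software that made them. Groups and array numbers came from the titles, and pressure and exposure from the descriptions. Another 12 arrays that the series' design text mentions were not analysed here.

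From 45101 probe sets 64 controls were left out, signals were transformed to log2(signal + 16) and quantile normalized, and the dimmest 40% by mean were dropped, which left 27022. Probe sets were named from the platform's annotation: 34945 had 1 gene symbol, 932 had several and 9160 had none, and those with several named no gene. Of gene identifiers 99.42% matched a current gene table, and 0 symbols changed. Fits used limma 3.58.1 under R 4.3.3 (lmFit, eBayes with an intensity trend). Hypoxia across strains and strain differences came from an additive model (5 residual degrees of freedom, prior 4.14). Effects within strains and the interaction came from 6 groups (3 residual degrees of freedom, from the 3 hypoxic pairs). The scripts were tested on simulated data.

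The members, lists and tests were chosen with earlier results of these data known. All members were named in every comparison. Of the other lists, genes past the threshold were named, or else up to 4 with the largest absolute change, and for likeness to Eln the 5 nearest genes. Hypoxic pairs differed by a median of 0.21 to 0.35 log2 units, so no array was a copy of another. Hypoxic arrays with the number 2 did not deviate together across strains (correlations of -0.03, -0.04 and -0.19), so the numbers were not taken to pair arrays. Settings varied were median centring, the authors' scaling alone, a pseudocount of 1 or 64, a filter of 60% or none, robust eBayes, eBayes with no trend, array weights, each array in turn left out, both arrays with kidney transcripts left out, the kidney marker level as a covariate, 1 probe set per gene, the array number as a block, and the 6 hypoxic arrays alone. Promoter windows were cut to the 250 bases before the start, and their strand was checked on 2039 overlapping windows. Fbn1 and promoters outside that table were not analysed here.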

Additional observations from a re-analysis of the deposited data

Results flagged for a closer look

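For 2 genes, read through the brightest probe set, all hypoxic arrays of one strain lay above the normoxic array of that strain while all hypoxic arrays of another lay below theirs. The share of all probe sets that did so was not counted, so this number is not read as a result about the members. Fbln2 differed in its hypoxia effect by 1.28 ± 0.402 (SE) between BL6 and SV129 (limma, adjusted p = 1.00) and by 1.66 ± 0.402 (SE) between FVB/N and SV129 (limma, adjusted p = 0.252). The hypoxic arrays lay 0.74 and 0.96 above the normoxic array in BL6, 1.02 and 1.44 above it in FVB/N, and at -0.40 and -0.46 from it in SV129. Mfap2 differed by 0.99 ± 0.520 (SE) between FVB/N and SV129 (limma, adjusted p = 0.480). Its arrays lay at 0.17 and 0.35 in FVB/N and at -0.31 and -1.15 in SV129. The second Mfap2 probe set did not show opposite directions, with arrays at -0.04 and -0.85 in FVB/N and at -0.93 and -0.07 in SV129. Its difference between these strains was 0.06 (limma, adjusted p = 0.985). None of the 3 differences in the brightest probe sets passed after adjustment. Each rests on a single normoxic array per strain, which in FVB/N also carried kidney and skeletal muscle transcripts.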

How the results depend on the processing

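The 4 members called for hypoxia across strains (Eln, Mfap4, Loxl1 and Fbln5) were also called under median centring, the authors' scaling alone, either pseudocount, either filter, robust eBayes, array weights (with Fbln2 besides, 0.97, adjusted p = 0.0228), 1 probe set per gene, the kidney covariate and a model of 6 groups. Without the intensity trend 2 were called, and without both arrays with kidney transcripts 1. Leaving out each array in turn gave 0 to 4. Between BL6 and FVB/N, where 1 was called, array weights called 3, and 0 were called without both arrays with kidney transcripts, with the replicate block of array number and with the 6 hypoxic arrays alone, with 0 to 2 over the arrays left out. Between FVB/N and SV129, where 2 were called, the model of 6 groups called 3 (with Fbln2 besides) and 4.45% of all probe sets. For the same strains 1 was called without the trend, with the replicate block and with the 6 hypoxic arrays alone, and 1 to 2 over the arrays left out. Under that block Eln between BL6 and FVB/N was at 1.12 (adjusted p = 0.102) and Loxl1 between FVB/N and SV129 at -0.86 (adjusted p = 0.113), and between BL6 and SV129 the count stayed at 1. In that block only hypoxic FVB/N array 6 carried the number 6, so it was fitted exactly. FVB/N then rested on its other arrays, and the block cannot separate array number from the loss of that array. BL6 against SV129 gave 0 to 1 over the arrays left out. For hypoxia in FVB/N, where 3 were called, 0 were called without the trend and 5 with array weights, and 0 to 5 over the arrays left out. Within FVB/N, Fbln2 was lost without a filter and with the higher pseudocount, and Fbln5 was lost under median centring. Elastin was gained there under median centring, the authors' scaling alone, the lower pseudocount and the stricter filter. Elastin was also gained with robust eBayes, array weights and 1 probe set per gene, and Mfap4 with array weights. Array weights called 11.8% of all probe sets for hypoxia in FVB/N and 8.14% between BL6 and FVB/N. Elastin between FVB/N and SV129 passed in all 24 alternatives, from -1.46 to -1.26 over the arrays left out. Changes that did not pass turned sign: Fbln1 was at 0.093 with array weights and ran from -0.31 to 0.11 over the arrays left out, and Mfap2 from -0.44 to 0.048. The cause of these shifts was not tested. Over all probe sets, 525 were called higher and 491 lower for hypoxia across strains. In either direction, 228 were called without both arrays with kidney transcripts, 582 without a filter, 657 without the trend, 1871 with array weights, 1960 with the kidney covariate and 3 to 1390 over the arrays left out. Median centring moved the median change of all probe sets from 0.04 to 0.11 and that of the members from 0.62 to 0.72. No paired analysis was possible for hypoxia because the normoxic arrays carry the number 1 and the hypoxic arrays 2, 5 or 6. The 3 members' probe sets under the filter were not tested in the main fit, so no change is given for them. At so dim a signal a change may go unseen.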
